A study of Mus musculus with 6 samples.

Results

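Expression of 10 genes of tumor necrosis factor, interleukin and inflammasome signalling was examined in whole lung tissue of hypoxic mice. These were the cytokines Tnf, Il1a, Il1b, Il6, Il18 and Il33, the interleukin receptors Il1r1 and Il1rl1, and the inflammasome genes Nlrp3 and Casp1. They were picked by gene name, with the direction of earlier results of the same arrays known, from 25428 measured features, of which each represents 1 gene, and all 10 were found. The study set mice whose endothelial cells carry a deletion of Nfat5, written Nfat5(EC)-/-, against Nfat5fl/fl mice, which carry the floxed alleles only. All 6 mice, 3 per genotype and numbered 1, 3 and 4 in both groups, had been kept at 10% oxygen for 7 days, and total RNA of 1 lung lobe per mouse was hybridised to 1 Affymetrix array. There was no group in normal air, so that the comparison concerns the genotype under hypoxia only. Age, sex and the driver of the Cre recombinase are not stated in the labels.

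TNF and the interleukins of the IL-1 family are inflammatory signals that endothelial cells, alveolar epithelium and macrophages of the lung both send and receive. IL-1 alpha and IL-1 beta act through IL-1 receptor 1, encoded by Il1r1, IL-33 acts through ST2, encoded by Il1rl1, and IL-6 acts through a receptor that shares the gp130 chain with related cytokines. The NLRP3 inflammasome is a sensor complex that activates caspase-1, which in turn cleaves the precursors of IL-1 beta and IL-18 into their secreted forms, so that transcript levels do not show how much active cytokine was released. NFAT5 is a transcription factor that is best known for its response to hypertonicity.

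All values are deposited log2 expression values made with RMA (robust multi-array average), on which a difference of 1 is a 2-fold difference, and they carry no call of detection. Nfat5 itself lay between 6.30 and 6.65 in the 3 Nfat5fl/fl arrays and between 3.89 and 4.48 in the 3 Nfat5(EC)-/- arrays, a difference of -2.23 ± 0.23 (SE, adjusted p = 0.00151, limma). The labels were thus matched by the targeted gene in each array, although the tissue contains many cells other than endothelium, and where its probes lie with respect to the deletion is not known. Array pairs correlated at 0.968 to 0.970 within Nfat5fl/fl, at 0.916 to 0.939 within Nfat5(EC)-/- and at 0.829 to 0.919 between the genotypes. The endothelial identity of part of the tissue was visible in Cdh5 and Pecam1, whose Nfat5fl/fl means were 10.65 and 9.48, as that of the alveolar epithelium was in Sftpc at 12.2. Whole lobes were measured, so that fewer cells of a type and less RNA per cell cannot be told apart.

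Across the 10 genes, 1 rose (Tnf), 3 fell (Il18, Il33 and Il1r1) and 6 did not pass an adjusted p of 0.05 (limma, Benjamini-Hochberg over all features). Among all features, 25.6% passed, with 12.5% higher and 13.1% lower, so that the 4 of 10 have to be read against a widely altered transcriptome. The median difference over the 10 genes was -0.62, compared with 0.04 over all features, and 8 of the 10 differences were negative. The ranges of the groups did not overlap for 5 of the 10 genes, 1 higher and 4 lower in Nfat5(EC)-/-, whereas ranges were apart for 42.0% of all features, 22.0% higher and 20.0% lower. At an unadjusted p under 0.05, 6 of the 10 genes and 37.6% of all features passed. All 4 calls rested on limma's sharing of variance information between features: in an ordinary linear model per gene the adjusted p was 0.05002 for Il18, 0.0875 for Il33, 0.0912 for Il1r1 and 0.125 for Tnf.

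To show what lies upstream of the genes on which these results turn, the 250 bases before an annotated transcription start are printed for Tnf, Il18, Il33 and Il1r1, which passed the test, and for Il6, which did not pass and holds matches to both factor motifs searched. Sequences are from RefSeq (GRCm38.p6, promoter table), run 5′ to 3′ in the direction of the gene, and capitals mark a match to TGGAAA (the core of the NFAT5 site), to the NF-kB consensus or to TATAAA on either strand.
Tnf, chr17:35202008-35202257, minus strand: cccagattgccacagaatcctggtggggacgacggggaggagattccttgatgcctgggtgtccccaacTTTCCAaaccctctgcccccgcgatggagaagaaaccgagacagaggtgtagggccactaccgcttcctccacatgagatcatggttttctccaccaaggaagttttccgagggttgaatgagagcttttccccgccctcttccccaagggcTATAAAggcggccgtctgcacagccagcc
Il6, chr5:30012864-30013113, plus strand: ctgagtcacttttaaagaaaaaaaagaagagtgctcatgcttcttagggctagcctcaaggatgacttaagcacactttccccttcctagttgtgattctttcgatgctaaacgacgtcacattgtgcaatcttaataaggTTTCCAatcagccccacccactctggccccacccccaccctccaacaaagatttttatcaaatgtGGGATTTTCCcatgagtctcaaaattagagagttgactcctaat
Il18, chr9:50554450-50554699, plus strand: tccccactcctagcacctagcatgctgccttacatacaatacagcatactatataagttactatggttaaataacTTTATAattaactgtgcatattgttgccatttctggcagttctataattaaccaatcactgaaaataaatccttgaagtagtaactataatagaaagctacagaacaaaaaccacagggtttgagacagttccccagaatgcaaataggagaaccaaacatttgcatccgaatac
Il33, chr19:29945540-29945789, plus strand: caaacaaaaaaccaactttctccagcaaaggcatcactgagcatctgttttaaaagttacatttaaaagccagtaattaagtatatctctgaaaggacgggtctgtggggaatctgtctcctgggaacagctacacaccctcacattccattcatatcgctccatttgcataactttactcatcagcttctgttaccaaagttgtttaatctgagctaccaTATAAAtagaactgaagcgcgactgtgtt
Il1r1, chr1:40266336-40266585, plus strand: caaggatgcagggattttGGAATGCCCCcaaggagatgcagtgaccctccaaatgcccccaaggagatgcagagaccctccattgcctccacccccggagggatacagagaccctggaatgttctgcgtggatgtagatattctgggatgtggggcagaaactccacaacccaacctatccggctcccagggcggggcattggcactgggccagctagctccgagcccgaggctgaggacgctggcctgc
Tnf showed TGGAAA on the opposite strand, as TTTCCA, at -181 to -176 from the start and TATAAA at -29 to -24. Il33 showed TATAAA at the same distance as Tnf, and Il6 carried TTTCCA at -109 to -104 and the NF-kB consensus, as GGGATTTTCC, at -44 to -35. In Il18 the capitals mark TATAAA on the opposite strand at -175 to -170, and in Il1r1 a match to the NF-kB consensus on the opposite strand at -232 to -223. All 10 genes were matched, with 14 windows between them. Il1r1 and Il33 each have a further window that is not printed. That of Il1r1 holds no match, and that of Il33 holds TATAAA at -203 to -198. Nlrp3, which did not pass and is not printed, also holds matches to both factor motifs. TGGAAA was found in 5 of the 14 windows (of Tnf, Il1b, Il6 and Nlrp3), compared with 18.6% of all 32851 windows of the same length. The NF-kB consensus was found in 3 of the 14 (of Il6, Il1r1 and Nlrp3), compared with 7.25% of all windows, and TATAAA in 6 of the 14 (of Tnf, Il1a, Il1b, Il18 and Il33), compared with 12.4%. Such a match only describes the letters in the window.

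Tnf, a cytokine made mainly by macrophages and T cells, read 2.64, 2.78 and 2.79 in the Nfat5fl/fl mice 1, 3 and 4, and 4.11, 3.95 and 3.13 in the Nfat5(EC)-/- mice 1, 3 and 4. All 3 knockout arrays lay above all 3 controls, with mouse 4 only 0.34 above the highest control and mice 1 and 3 well above it. The group means were 2.74 ± 0.08 and 3.73 ± 0.52 (SD, n = 3 each), a 1.99-fold rise (log2 difference 0.99 ± 0.27 SE, 95% interval 0.39 to 1.60, adjusted p = 0.0254, limma). The call depended on single arrays: the adjusted p was 0.0947, 0.0813 and 0.0662 without the Nfat5fl/fl mice 1, 3 and 4 and 0.0571 and 0.0678 without the Nfat5(EC)-/- mice 1 and 3, and was 0.00577 without the Nfat5(EC)-/- mouse 4. The difference stayed between 0.80 and 1.29 in these fits. The Nfat5fl/fl mean of Tnf was below the array median of 2.98, and of the features below that median 6.44% were called higher and 1.76% lower.

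Of the 5 other cytokines, Il18 and Il33 fell, and Il1a, Il1b and Il6 did not pass. Il18, a cytokine of the IL-1 family that induces interferon gamma, read 4.39, 4.14 and 4.22 in the Nfat5fl/fl mice 1, 3 and 4 and 2.38, 3.10 and 3.00 in the Nfat5(EC)-/- mice 1, 3 and 4. The groups were separated by 1.04, with knockout mouse 1 the lowest. Il18 was 2.68-fold lower, with means of 4.25 ± 0.13 and 2.83 ± 0.39 (log2 difference -1.42 ± 0.23 SE, 95% interval -1.95 to -0.89, adjusted p = 0.00407, limma), and the call was kept without each single array, with a highest adjusted p of 0.0262.

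Il33, an alarmin stored in nuclei of epithelial and endothelial cells, read 6.91, 7.02 and 7.00 in the Nfat5fl/fl mice 1, 3 and 4 and 5.50, 6.20 and 6.25 in the Nfat5(EC)-/- mice 1, 3 and 4. The controls lay close together, and the knockout arrays were all at least 0.66 below them, with mouse 1 again the lowest. Means were 6.98 ± 0.06 and 5.98 ± 0.42, a 1.99-fold fall (log2 difference -0.99 ± 0.24 SE, 95% interval -1.53 to -0.46, adjusted p = 0.0162, limma). Without the Nfat5fl/fl mice 1, 3 or 4 the adjusted p was 0.0562, 0.0678 and 0.0529, and it passed without each of the knockout arrays.

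Il1a and Il1b, which encode both agonists of the IL-1 receptor, did not pass. Il1a, which can act as an alarmin released from dying cells, read 3.35, 3.18 and 2.74 in the Nfat5fl/fl mice 1, 3 and 4 and 1.81, 2.54 and 3.15 in the Nfat5(EC)-/- mice 1, 3 and 4. The ranges overlapped, since knockout mouse 4 was within the control range while mice 1 and 3 were below it. The difference was -0.59 ± 0.33 (SE, 95% interval -1.34 to 0.16, adjusted p = 0.234, limma). Il1b, the product of activated myeloid cells, read 2.56, 3.36 and 3.23 in Nfat5fl/fl and 1.79, 2.36 and 2.58 in Nfat5(EC)-/-, with the mice in the same order. Knockout mouse 4 and control mouse 1 were almost equal and were the only pair that overlapped, by 0.03. The difference was -0.81 ± 0.29 (SE, 95% interval -1.45 to -0.16, adjusted p = 0.0691, limma), and it crossed the threshold when a trend of the values on gene span was removed (-1.04, adjusted p = 0.0233). In the other direction, the adjusted p was 0.208 without moderation of the variances, and it lay between 0.0506 and 0.234 with single arrays left out, the highest being without the Nfat5fl/fl mouse 3.

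Il6, which drives the acute phase response, read 1.59, 2.12 and 1.61 in the Nfat5fl/fl mice 1, 3 and 4 and 1.89, 1.54 and 1.38 in the Nfat5(EC)-/- mice 1, 3 and 4. The groups were intermixed and near the low end of the scale. The difference was -0.17 ± 0.23 (SE, 95% interval -0.69 to 0.35, adjusted p = 0.65, limma), and without the Nfat5fl/fl mouse 3 it was 0.00.

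**Figure D1:**
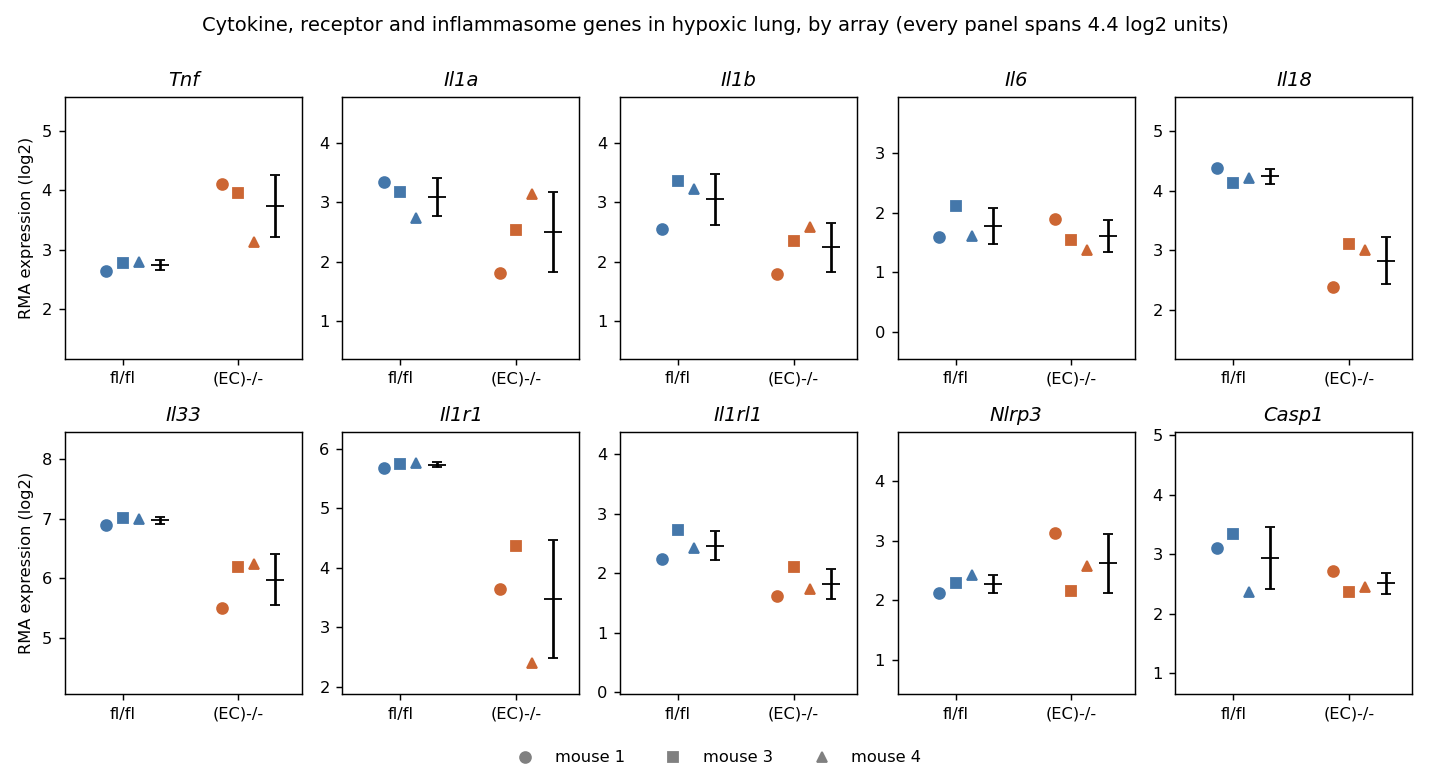
RMA log2 expression of the 10 genes (vertical axis) in the 3 Nfat5fl/fl (blue) and 3 Nfat5(EC)-/- arrays (orange), with the mouse number as the shape of the point and black marks for mean and SD. Every panel spans the same number of log2 units, and the groups are apart for Tnf (higher) and for Il18, Il33, Il1r1 and Il1rl1 (lower).

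Of the receptors, Il1r1 encodes the chain that binds both IL-1 agonists. It read 5.68, 5.74 and 5.75 in the Nfat5fl/fl mice 1, 3 and 4 and 3.64, 4.36 and 2.40 in the Nfat5(EC)-/- mice 1, 3 and 4. The control arrays were almost equal, whereas the knockout arrays were spread over nearly the size of the effect itself, with mouse 4 the lowest and a gap of 1.32 between the groups. Il1r1 was 4.78-fold lower, with means of 5.72 ± 0.04 and 3.47 ± 0.99 (SD, n = 3 each; log2 difference -2.26 ± 0.42 SE, 95% interval -3.20 to -1.31, adjusted p = 0.00602, limma). This was the largest difference of the 10 genes, and the call was kept without each single array, at an adjusted p of up to 0.0323.

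Il1rl1, which encodes the IL-33 receptor ST2 found on mast cells and type 2 lymphoid cells, read 2.24, 2.72 and 2.43 in the Nfat5fl/fl mice 1, 3 and 4 and 1.62, 2.11 and 1.73 in the Nfat5(EC)-/- mice 1, 3 and 4. All knockout arrays were below all controls, by a gap of only 0.13. The difference was -0.64 ± 0.22 (SE, 95% interval -1.14 to -0.15, adjusted p = 0.06, limma), which narrowly missed the threshold. The adjusted p was 0.0392 without the Nfat5(EC)-/- mouse 3 and lay between 0.088 and 0.219 without each of the other arrays. With the trend on gene span removed, the difference was only -0.39 (adjusted p = 0.206).

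The inflammasome genes themselves did not pass. Nlrp3, the sensor, read 2.12, 2.29 and 2.42 in the Nfat5fl/fl mice 1, 3 and 4 and 3.13, 2.15 and 2.58 in the Nfat5(EC)-/- mice 1, 3 and 4. Knockout mouse 1 was the highest array, mouse 4 was slightly above the controls and mouse 3 was among them. The difference was 0.34 ± 0.26 (SE, 95% interval -0.25 to 0.94, adjusted p = 0.389, limma). Casp1, the protease, read 3.10, 3.35 and 2.36 in the Nfat5fl/fl mice 1, 3 and 4 and 2.72, 2.37 and 2.44 in the Nfat5(EC)-/- mice 1, 3 and 4. Control mouse 4 was the lowest array of all 6, below every knockout array. The difference was -0.43 ± 0.27 (SE, 95% interval -1.04 to 0.19, adjusted p = 0.294, limma). These intervals include a change of either sign, so that neither a rise nor a fall of the inflammasome core was detectable with 3 arrays per group.

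**Figure D2:**
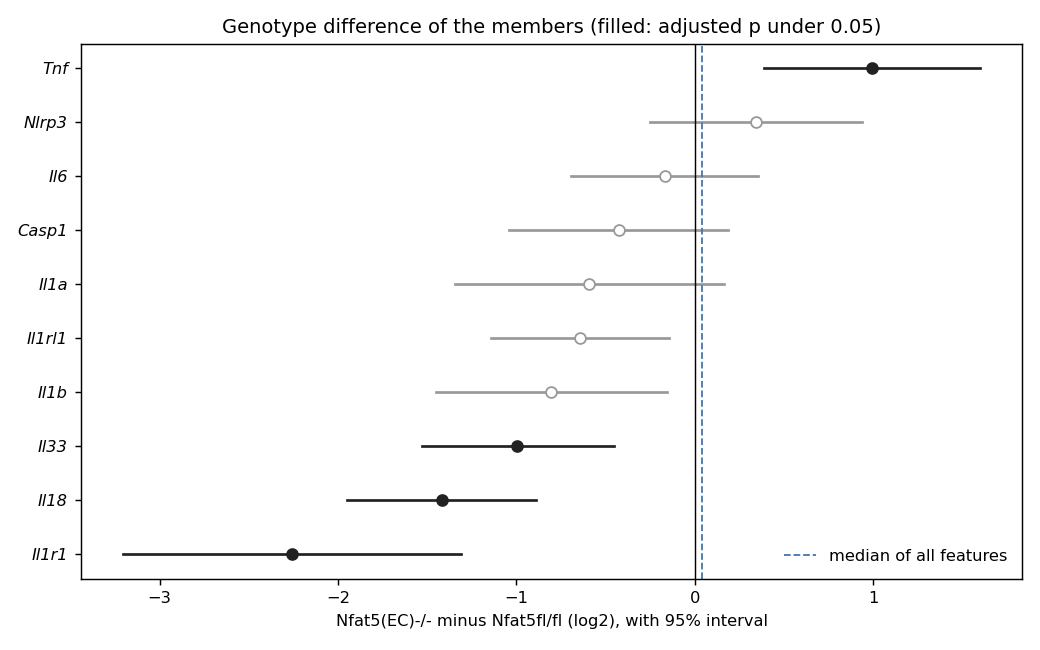
Log2 difference between Nfat5(EC)-/- and Nfat5fl/fl (horizontal axis) with its 95% interval for each of the 10 genes, sorted by size, with filled points for an adjusted p under 0.05 and a dashed line at the median of all features. Tnf at 0.99 lies at one end and Il1r1 at -2.26 at the other, and the intervals of Nlrp3, Il6, Casp1 and Il1a include 0.

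The variation among mice was uneven between the groups. The SD was smaller in Nfat5fl/fl for 7 of the 10 genes, and for 67.0% of all features. Knockout mouse 1 was the lowest of the knockout arrays for Il1a, Il1b, Il18, Il33 and Il1rl1 and the highest for Tnf, Il6, Nlrp3 and Casp1, while knockout mouse 4 was the lowest for Tnf, Il6 and Il1r1. Thus the array with the highest Tnf was not the one with the lowest Il1r1. Levels and gene length also differed among the 10 genes. The Nfat5fl/fl means of Tnf, Il6, Il1rl1, Nlrp3 and Casp1 were below the array median, and of these only Tnf passed. Those of the remaining 5 genes were above it, and 3 of these fell, beside 24.5% of all features above the median called lower and 18.7% called higher.

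Gene span, the genomic length of a gene with its introns, ranged from 2641 bases for Tnf to 93722 bases for Il1r1. Over 20236 protein-coding features, span and log2 difference correlated negatively (Spearman's rho -0.323, across genes, which are not independent replicates), and over the 10 genes rho was -0.673. The shortest gene was thus the one that rose and the longest the one with the largest fall. When the trend on span was removed in each array, the Tnf difference was 0.77 with an adjusted p of 0.0649, and Il18, Il33 and Il1r1 kept their calls. Of 107 small nucleolar RNA features, which are short, 80 rose (limma).

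**Figure D3:**
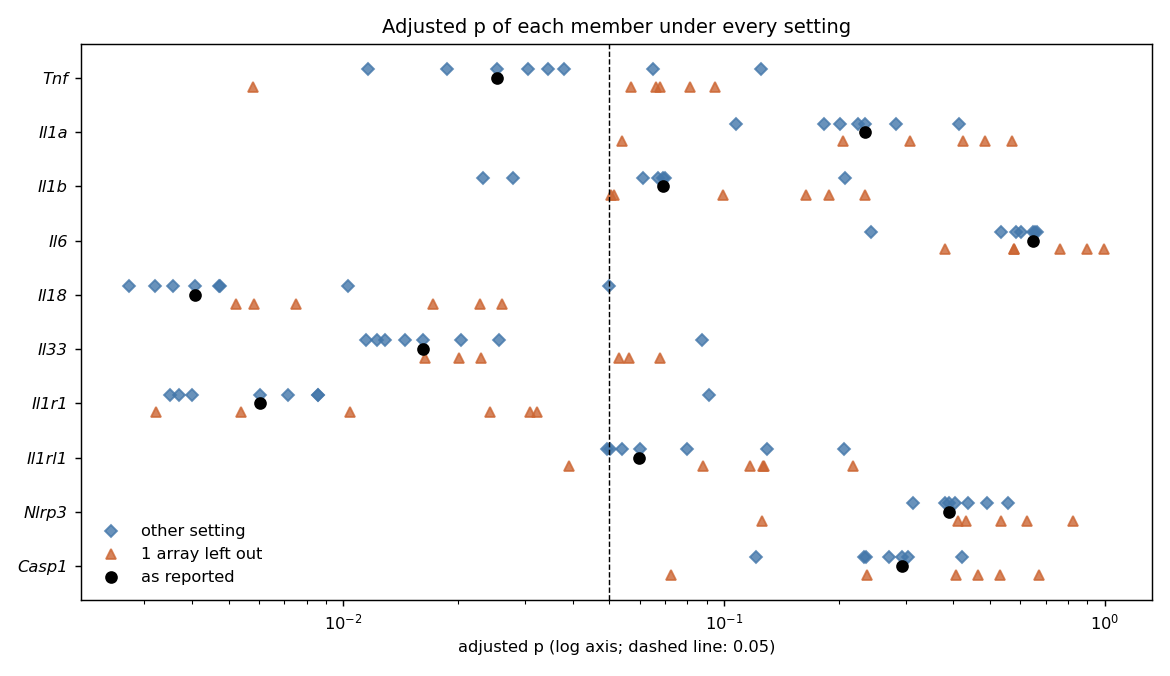
Adjusted p of each gene on a log axis as reported (black), under the other processing settings (blue diamonds) and with 1 array left out (orange triangles), with a dashed line at 0.05. Il18 and Il1r1 stay left of the line in every leave-one-out fit, while the triangles of Tnf and Il33 lie on both sides of it.

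Markers of the cell types that could carry these transcripts moved as well. All listed markers of endothelium, of alveolar type 1 and type 2 cells and of alveolar macrophages had Nfat5fl/fl means above the array median. Of all features above it, 24.5% were called lower and 18.7% higher, and the counts below have to be read against these shares. Of 10 endothelial markers, 5 fell and 2 rose, among them Cdh5 (-1.52, adjusted p = 0.0044) and Tek (-2.01, adjusted p = 0.00539) below and Egfl7 (1.06, adjusted p = 0.00551) above (limma). The log2 of their summed level lay between 11.58 and 11.86 in Nfat5fl/fl and between 10.61 and 10.97 in Nfat5(EC)-/-, apart in the same direction as Il1r1 and Il33. For 8 alveolar type 2 markers, of which 1 rose and 2 fell, the range was 13.25 to 13.41 against 12.53 to 13.19, apart in that same direction too. For 8 alveolar type 1 markers, 1 higher and 4 lower, the ranges overlapped, at 11.29 to 11.62 against 11.17 to 11.48. The brightest features weigh most in such a sum, and the mean log2 level of the alveolar type 1 markers was apart, at 7.85 to 8.17 against 7.26 to 7.67. Beside Il18 and Il1b, of 10 alveolar macrophage markers 0 rose and 2 fell (Mrc1 at -1.47, adjusted p = 0.00687, and Fabp4 at -2.43, adjusted p = 0.00521, limma). That is 20.0% called, not more than the 25.6% of all features. Their summed level was 9.17 to 9.76 in Nfat5fl/fl against 8.17 to 8.85 in Nfat5(EC)-/-. At an unadjusted p under 0.05, 5 of these 10 were lower and 0 higher, while 37.6% of all features passed in either direction. Marco (0.39), Cidec (0.33) and Itgax (0.06) had positive differences that did not pass (adjusted p = 0.436, 0.527 and 0.892, limma), and the rest were negative. Fabp4 also varied among the controls, from 5.86 to 7.79. Without moderation of the variances, Cdh5, Tek, Mrc1 and Fabp4 lost the call, with adjusted p between 0.0593 and 0.0865.

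Beside Tnf, which rose, the same alveolar macrophage markers were lower in summed level, with no overlap between the groups (9.17 to 9.76 against 8.17 to 8.85), whereas the monocyte, T cell and neutrophil lists overlapped. For 9 monocyte and interstitial macrophage markers, 2 higher and 2 lower, the range was 7.94 to 8.12 in Nfat5fl/fl and 7.93 to 8.44 in Nfat5(EC)-/-. For 12 T cell and innate lymphoid markers, 3 higher and 1 lower, it was 7.02 to 7.40 against 7.34 to 7.55, and for 10 neutrophil markers, of which 1 rose, it was 5.80 to 6.09 against 5.90 to 6.28. Beside Il1rl1, 1 of 10 mast cell and basophil markers fell (Cpa3 at -1.32, adjusted p = 0.0254, limma), and their summed levels overlapped, at 7.50 to 7.79 against 7.26 to 7.56. Kit, with a Nfat5fl/fl mean of 6.51, weighed most in that sum. Mcpt4, Mcpt8, Ms4a2, Fcer1a and Cma1 were near the low end of the scale, with Nfat5fl/fl means of 1.58 to 1.80. The call of Cpa3 was lost without the Nfat5fl/fl mice 1 (adjusted p = 0.0561) or 3 (0.0602) and without the Nfat5(EC)-/- mouse 1 (0.0581, limma). Of 8 fibroblast markers 2 rose and 1 fell, while 1 of 7 B cell markers rose and 1 of 6 adipocyte markers fell. No marker was at 0, since the lowest value of any feature was 0.725, and the values carry no call of detection. The part of these cell types in the differences of the 10 genes was not tested.

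Of 149 measured genes in 8 lists of the surrounding pathways, 19 rose, 32 fell and 98 did not pass, which is 34.2% called beside 25.6% of all features, with a median difference of -0.05. The share called depended on level. Of all features with a Nfat5fl/fl mean above the array median, 18.7% were called higher and 24.5% lower, and of those below it 6.44% and 1.76%. Of the 149 genes, 67 had Nfat5fl/fl means below that median. Without the Nfat5fl/fl mice 1 or 3 the counts in the lists were 11 and 8 higher and 18 and 15 lower, and without the Nfat5fl/fl mouse 4 they were 12 higher and 22 lower. For 22 of the 51 called genes the call was kept without each single array, and the genes named from the lists are those of the 4 largest called differences per direction and list that are among these 22. Without moderation of the variances, Rnf31, Rbck1, Ltb, Sigirr, Il18r1, Jak1, Jak2, Lifr and Nek7 of these named genes lost the call, with adjusted p between 0.05195 (Ltb) and 0.0997 (Jak1), and the others kept it.

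Of the 18 genes of TNF receptors and proximal signalling, 4 rose and 7 fell, with a median of -0.33. Rnf31 (1.27, adjusted p = 0.00762) and Rbck1 (1.03, adjusted p = 0.00871), both subunits of the linear ubiquitin ligase complex, rose, whereas Cyld, a deubiquitinase that removes such chains, fell (-1.58, adjusted p = 0.00298, limma). Casp8, the initiator caspase of death receptor signalling, fell by 1.76 on the log2 scale (adjusted p = 0.00217, limma). The receptors of TNF, singled out after their values were seen, did not pass, with Tnfrsf1a at 0.48 (adjusted p = 0.187) and Tnfrsf1b at 0.24 (adjusted p = 0.595, limma). Of 16 other TNF superfamily ligands, 1 rose and 2 fell, and the one that rose was Ltb, which encodes lymphotoxin beta (1.51, adjusted p = 0.00384, limma). The median of these ligands was -0.03.

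Of 12 other ligands, receptors and inhibitors of the IL-1 family, 2 rose and 2 fell (median -0.29). Il18r1, which encodes the receptor chain that binds IL-18, fell by 1.70 on the log2 scale (adjusted p = 0.00483), and Sigirr, an inhibitory receptor of the family, rose by 1.25 (adjusted p = 0.00547, limma). IL-18 and IL-1 thus each had a receptor gene with a lower level, while Il1rap, the co-receptor chain, and Il1rn, the natural antagonist, both looked at after their values were seen, differed by -0.06 and -0.03, with a sign that changed between settings (adjusted p = 0.878 and 0.954, limma). Among 14 adaptors and kinases of IL-1 and toll receptors, 2 rose and 5 fell, with a median of -0.69. Those that fell included Map3k7, which encodes the kinase TAK1 (-1.69, adjusted p = 0.00229), its binding partner Tab2 (-1.19, adjusted p = 0.00454) and the ubiquitin ligase Peli1 (-1.02, adjusted p = 0.00568, limma).

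Of 19 genes of the IL-6 receptor and JAK-STAT signalling, 2 rose and 6 fell (median -0.22). Jak2 (-1.61, adjusted p = 0.00431) and Jak1 (-1.38, adjusted p = 0.0113), the kinases bound to gp130, and Lifr, the receptor of leukemia inhibitory factor (-1.75, adjusted p = 0.00448), fell, whereas Socs3, a feedback inhibitor of gp130 signalling, rose by 1.28 (adjusted p = 0.00275, limma). Of 28 other interleukins, 4 rose and 1 fell (median 0.08), and 23 had Nfat5fl/fl means below the array median. Il25, a cytokine of type 2 immunity (0.97, adjusted p = 0.00833), and Il27, a relative of IL-12 (0.95, adjusted p = 0.00623), were among those that rose (limma).

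Of 25 other inflammasome sensors, adaptors, caspases and effectors, 2 rose and 7 fell (median -0.29). Nek7, the kinase that binds NLRP3 during its activation, fell by 1.71 on the log2 scale (adjusted p = 0.00366), and Ninj1, which ruptures the plasma membrane in late pyroptosis, rose by 1.66 (adjusted p = 0.00235, limma). Pycard, the adaptor between NLRP3 and caspase-1, and Gsdmd, the pore former cleaved by it, which were singled out afterwards, read 0.48 (adjusted p = 0.135) and 0.09 (adjusted p = 0.842, limma). Of 17 genes that TNF and IL-1 are known to induce in other settings, 2 rose, 2 fell and 13 did not pass, which is 23.5% called, near the 25.6% of all features, with a median of 0.26. Lcn2, which encodes lipocalin-2, an iron-binding defence protein, fell by 2.04 on the log2 scale (adjusted p = 0.00159, limma).

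**Figure D4:**
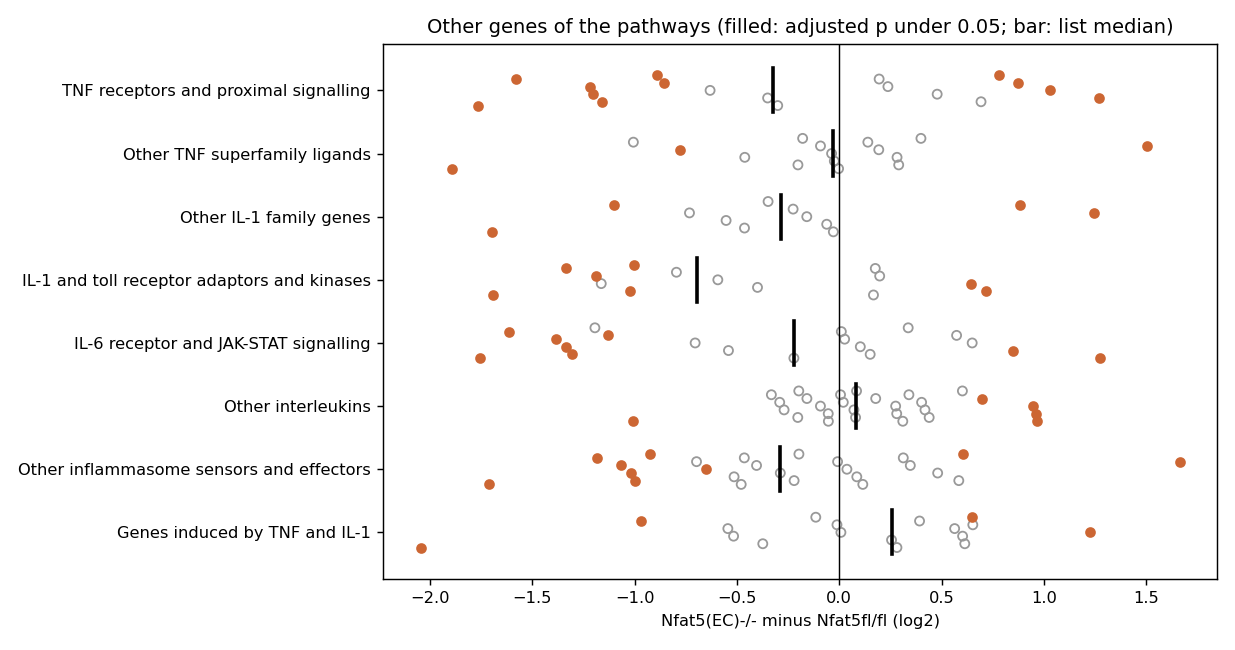
Log2 difference between Nfat5(EC)-/- and Nfat5fl/fl (horizontal axis) of each measured gene in the 8 pathway lists, with filled points for an adjusted p under 0.05 and a bar at the median of each list. The list medians lie between -0.69 for the IL-1 and toll receptor adaptors and kinases and 0.26 for the genes induced by TNF and IL-1.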

How the data were processed

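Total RNA of 1 lung lobe from each of 6 hypoxic mice was hybridised by the authors to Affymetrix arrays, 1 per mouse. The deposited values are log2 expression values that, per the labels, the authors made with RMA (background correction, quantile normalization and summary of the probes of a gene). Which RMA version, probe definition and genome build they used is not stated in the labels. Sorted values of the 6 arrays differed by at most 0.00183, so that a change in total RNA would not be visible, and low values are compressed. Values ranged from 0.725 to 13.0 with a median of 2.98, and the number of arrays limits the precision.

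Features were named through the gene number in their identifier and the RefSeq table of GRCm38.p6 (25237 features) or the platform annotation alone (32), and 159 stayed unnamed. Il1rl1 was named by the RefSeq table only. Genotypes were compared with limma 3.58.1 in R 4.3.3 (lmFit, eBayes) on all 6 arrays and 25428 features without covariates or a filter, as a 2-sided test at a Benjamini-Hochberg adjusted p of 0.05. An exact permutation test of 3 against 3 arrays could not go below 0.1. The fit was run on simulated data with known differences, in which noise was independent between features and of equal SD in both groups. That run does not show how the fit performs where the spread of the groups is unequal, as here. The 10 genes, the pathway lists and the marker lists were chosen with earlier results of these data known. Named were all 10 genes, Nfat5 and at most the 4 largest called differences per direction of each pathway list. Some of the 2 highest or of the called markers per cell type were named as well, not always those with the largest differences. The protein-coding gene most alike to each gene whose groups were apart was also named. Other markers and pathway genes were named after their values were seen. Of 151 listed pathway genes 149 were matched, 3 of them by a synonym. Promoter windows were limited to the 250 bases before each annotated start. Alternatives were a replicate block, a filter on dim features, cyclic loess, median centring, a variance trend with robust moderation, no moderation, array weights, removal of the trend on gene span and leaving out each array.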

Additional observations from a re-analysis of the deposited data

How the results depend on the processing

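Of the alternatives tried for the 10 genes, 116 kept direction and side of the threshold, 13 lost the call, 4 gained one and 1 changed sign. Without moderation of the variances, adjusted p was 0.125 for Tnf (0.99), 0.05002 for Il18 (-1.42), 0.0875 for Il33 (-0.99) and 0.0912 for Il1r1 (-2.26), so that 0 of the 10 genes were higher and 0 lower, with 7 higher and 9 lower in the pathway lists and 1118 higher and 866 lower over all features (3185 and 3325 as reported). With the gene span trend removed, Tnf was 0.77 (adjusted p = 0.0649), Il1b -1.04 (0.0233) and 0 of the 10 genes were higher. The labels do not say whether the mouse numbers pair the arrays. Deviations of same-numbered arrays from their group means correlated at 0.0647, -0.0103 and 0.00719, which cannot decide whether the mice were paired. With the number as a replicate block, Il1b (-0.81, adjusted p = 0.0279) and Il1rl1 (-0.64, adjusted p = 0.0494) passed, 5 of the 10 genes were lower, and 3063 features were higher and 3247 lower. Cyclic loess, median centring, variance trend with robust moderation, array weights and the filter changed no call of the 10 genes. The filter kept only Tnf, Il18, Il33 and Il1r1 of them, so that it gives no value for the others.

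Leaving out 1 array at a time gave 0.80 to 1.29 for Tnf, -0.92 to -0.25 for Il1a, -1.05 to -0.58 for Il1b, -1.56 to -1.20 for Il18, -1.13 to -0.75 for Il33, -2.70 to -1.73 for Il1r1, -0.79 to -0.52 for Il1rl1, 0.09 to 0.58 for Nlrp3, -0.72 to -0.22 for Casp1 and -2.33 to -2.04 for Nfat5. Il6 lay between -0.32 and 0.00 and changed sign without the Nfat5fl/fl mouse 3 (0.003682, adjusted p = 0.995). Small differences of other named genes also changed sign: Il1rap was 0.004493 with array weights, 0.3054 with the span trend removed and -0.2041 to 0.07077 without single arrays, Il1rn was -0.2937 to 0.188 without single arrays, and Gsdmd was -0.1685 with the span trend removed and -0.1672 to 0.2327 without single arrays. Of the 10 genes, 0 to 1 were higher and 2 to 4 lower. In the pathway lists 8 to 19 were higher and 15 to 31 lower, and over all features 1462 to 3138 were higher and 1555 to 3227 lower. The cause of these shifts was not tested, beside the smaller number of arrays.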

Other observations

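The receptor genes of the IL-1 family lie side by side on mouse chromosome 1, and all 6 measured there, looked at after their values were seen, had negative differences. Il1r1 (-2.26) and Il18r1 (-1.70, adjusted p = 0.00483), which lie 243 kb apart, passed without each single array. Il1rl2, the receptor of IL-36, was at -1.10 (adjusted p = 0.0165, limma) and did not pass without the Nfat5fl/fl mice 1 (adjusted p = 0.0761) or 3 (adjusted p = 0.0739). Il1rl1 (-0.64, adjusted p = 0.06), Il18rap (-0.46, adjusted p = 0.0925) and Il1r2 (-0.35, adjusted p = 0.212) did not pass (limma). On chromosome 17, Tnf lies 4.86 kb from Ltb, which also rose (1.51, adjusted p = 0.00384), and 3.8 kb from Lta, at 0.28 (adjusted p = 0.552, limma).

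Over the 6 arrays, the protein-coding gene whose pattern was most like that of Tnf was Gml2 (Pearson's r 0.997), and those for Il18, Il33, Il1r1 and Il1rl1 were Srsf3 (0.999), Gphn (0.999), Rcbtb1 (0.9996) and Zgrf1 (0.995). Such values describe likeness in these arrays only.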
